A study of Mus musculus with 6 samples.

Results

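Epithelial-to-mesenchymal transition (EMT) is the programme by which epithelial cells give up their junctions and take on a migratory, fibroblast-like form. It was examined here through 10 genes in RNA sequencing counts of mouse RM1 prostate cancer cells: 7 genes of transcription factors that drive the programme (Snai1, Snai2, Twist1, Twist2, Zeb1, Zeb2 and Prrx1), the intermediate filament gene Vim, and the genes of the mesenchymal cadherins Cdh2 (N-cadherin) and Cdh11. The 10 genes were listed by name, no measured value enters that rule, and they make up 10 of the 23791 named entries of the count table. All 10 passed the filter on low counts and were among the 13832 genes tested.

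The 6 libraries came from RM1, a prostate cancer line of the C57BL/6 mouse strain, in 4 groups. Unlabelled parental RM1 was sequenced from culture as replicates a and b. RM1536, which is RM1 that carries eCFP (a fluorescent protein) and luc2 (a luciferase) and was made by pooling 3 clones, was also sequenced from culture as replicates a and b. The other 2 libraries were RM1536 cells recovered from the femur, called bone here, and from the lung of the same mouse 16 days after injection into the heart. The sources used here give no age or sex of that animal. Per the labels' protocols, the cells were sorted by FACS and expanded in DMEM with 5% FBS to 85% confluency before RNA was taken, so the bone and lung libraries represent cells that had been back in culture. Each has no replicate, and both come from 1 animal. Whether a and b are separate cultures is not stated, so p-values measure only the spread between these libraries, which may be technical.

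In the embryo and in carcinomas, the Snail zinc-finger proteins (Snai1 and Snai2, also called Slug) and the ZEB proteins (Zeb1 and Zeb2) bind E-box motifs in the promoters of epithelial genes and repress them. Twist1 and Twist2 are basic helix-loop-helix factors that act as dimers with E-proteins, and Prrx1 is a homeobox factor of mesenchyme. Loss of the epithelial cadherin Cdh1 (E-cadherin) with gain of Cdh2 is known as the cadherin switch, and vimentin is the usual filament marker of mesenchymal cells.

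The E-box that the Snail and ZEB proteins are known to prefer, CACCTG or CAGGTG (the same motif read on either strand), was searched for in RefSeq promoter sequences of build GRCm38.p6, each of 300 bases with 250 before the transcript start. Of all 32851 such promoters, 6640 (20.2%) held it. Among the 10 genes, 6 were searched here, with 9 promoters, and only that of Snai1 held the motif. Snai2, Zeb1, Cdh2 and Cdh11 were not searched. Among the epithelial genes listed as known targets of these repressors, 9 genes with 13 promoters were matched, Cdh1 not among them. Of these 13 promoters, 11 (84.6%) held the motif. Those genes were listed because they are targets of E-box repressors, so this share is a description. The 250 bases before the start are shown for both kinds of gene, 5′ to 3′ on the gene's strand, with each E-box in capitals. Snai1 (chr2:167537945-167538194, plus strand) has an E-box that begins 126 bases before the start, at -126, and Twist1 (chr12:33957421-33957670, plus strand) has none in this window. The epithelial adhesion molecule gene Epcam (chr17:87635729-87635978, plus strand) has E-boxes at -187 and -19, and the tight junction gene Cldn4 (chr5:134946935-134947184, minus strand) has one at -14.
Snai1: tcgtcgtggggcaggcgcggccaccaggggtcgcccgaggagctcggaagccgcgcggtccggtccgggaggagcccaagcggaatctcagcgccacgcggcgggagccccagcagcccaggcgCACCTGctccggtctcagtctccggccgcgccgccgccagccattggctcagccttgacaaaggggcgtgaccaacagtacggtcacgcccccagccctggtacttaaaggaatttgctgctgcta
Twist1: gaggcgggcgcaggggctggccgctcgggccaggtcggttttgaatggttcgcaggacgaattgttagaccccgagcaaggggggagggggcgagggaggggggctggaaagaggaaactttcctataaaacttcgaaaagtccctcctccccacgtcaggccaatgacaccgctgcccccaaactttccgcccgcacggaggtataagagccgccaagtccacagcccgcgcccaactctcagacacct
Epcam: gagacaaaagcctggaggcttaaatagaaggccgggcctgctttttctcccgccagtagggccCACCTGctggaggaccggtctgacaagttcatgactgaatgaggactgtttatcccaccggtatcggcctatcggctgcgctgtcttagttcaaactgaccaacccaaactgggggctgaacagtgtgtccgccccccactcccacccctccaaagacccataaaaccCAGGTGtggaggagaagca
Cldn4: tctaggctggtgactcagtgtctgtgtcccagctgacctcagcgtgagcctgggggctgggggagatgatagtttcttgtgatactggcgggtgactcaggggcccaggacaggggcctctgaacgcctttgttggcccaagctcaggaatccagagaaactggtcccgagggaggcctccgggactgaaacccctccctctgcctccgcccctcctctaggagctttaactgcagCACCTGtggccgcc
A match is a stretch of letters and does not show that a factor bound there.

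Most of these epithelial target genes had few reads, while the repressor genes had many. Epcam, whose sequence is shown, had 1.24 and 0.708 CPM (counts per 1e6 counts, scaled for library composition) in the RM1 duplicates, 1.33 and 0.582 in those of RM1536, 0.922 in the bone library and 0.118 in that of the lung. Cldn4 had 0.0395 to 0.324 CPM, with at most 10 reads in any library. Snai1, in contrast, had 31.4 to 36.9 CPM, and Twist1 had 82.5 to 122.6. A count of 3 corresponds to 0.099 to 0.132 CPM in these libraries, which had totals of 22763835 to 30303566 counts.

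**Figure D1:**
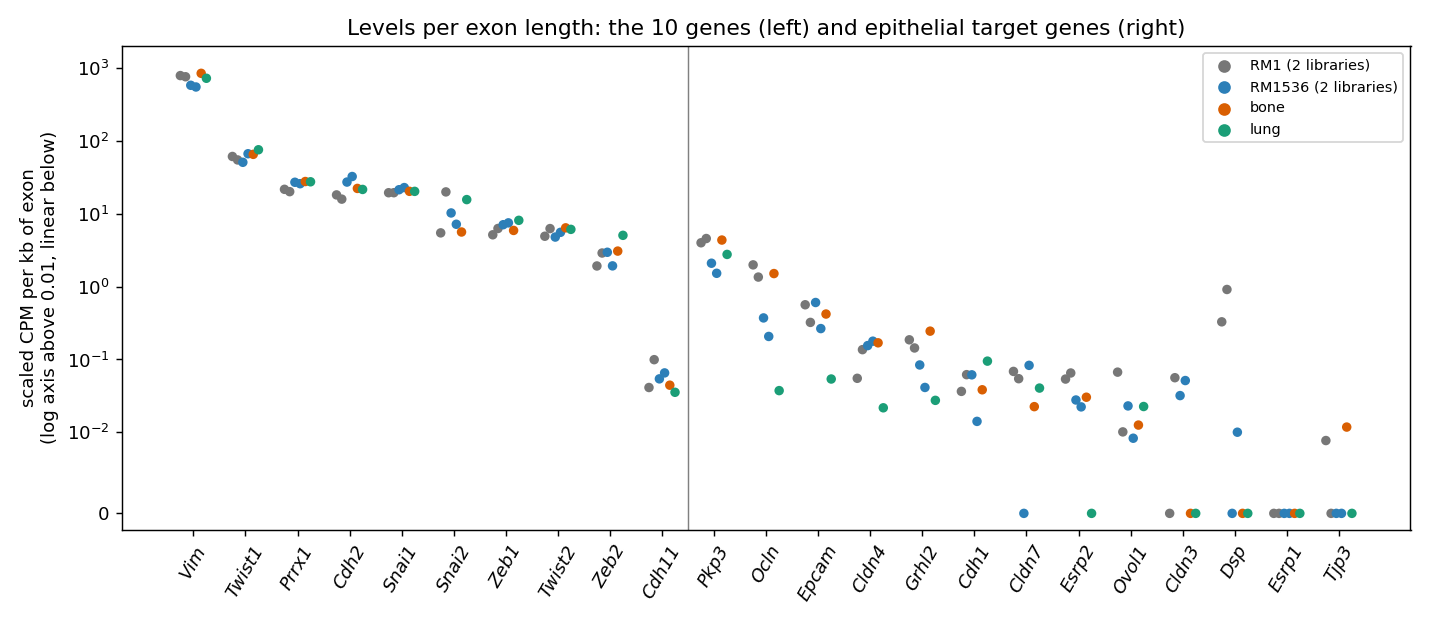
Scaled CPM per kb of exon (log axis above 0.01, linear below) for the 10 genes on the left and 13 epithelial target genes on the right, 1 point per library coloured by group. Of the 10 genes, 9 lie above 1.9 in every library and Cdh11 lies below 0.1, whereas among the epithelial genes Pkp3 alone stays above 1 in all 6.

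Compared with each other per kb of exon, which allows levels of different genes to be set side by side, the 10 genes spanned a wide range that changed little between libraries. Vim stood highest, with a median of 738 CPM per kb over the 6 libraries (range 547 to 842), followed by Twist1 with 63.0 (50.7 to 75.3). Prrx1 (26.4, range 20.1 to 27.6), Cdh2 (21.9, 15.8 to 32.3) and Snai1 (20.2, 19.4 to 22.8) came next with overlapping ranges. Prrx1 was above Snai1 in each of the 6 libraries, while Cdh2 was below both in RM1 and above both in RM1536. Below them were Snai2 (8.69, 5.45 to 19.9), Zeb1 (6.66, 5.13 to 8.10), Twist2 (5.82, 4.78 to 6.39) and Zeb2 (2.92, 1.92 to 5.05), each overlapping its neighbour. Cdh11 was lowest, at 0.0493 (0.0355 to 0.0994). When the longest coding transcript replaced the union of exons as the length, Zeb1 (11.8) passed Snai2 (8.69) and the rest of the order was the same.

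The first comparison asked how the labelled, pooled-clone line differed from its parent line in these genes. None of the 10 passed the test in RM1536 against RM1 (edgeR quasi-likelihood test, Benjamini-Hochberg adjustment over all 13832 genes, threshold 0.05), where 5.64% of all genes passed. At an unadjusted p under 0.05 there was 1 gene, Cdh2, against 23.0% of all genes. DESeq2 called 1 (Cdh2) and limma-voom called 0. The median log2 fold change of the 10 genes was 0.02, and that of all genes tested was also 0.02. In 5 of the 10 (Snai1, Zeb1, Prrx1, Vim and Cdh2) the RM1 libraries did not overlap the RM1536 libraries, which was so for 54.2% of all genes.

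The other comparisons set the cells recovered from bone and from lung against RM1536 in culture. They share the RM1536 libraries, and each lone library was assumed to vary like the culture duplicates. None of the 10 genes passed in bone (0.0145% of all genes did) or in lung (0% did). At an unadjusted p under 0.05 there were 0 genes in bone, against 9.92% of all genes, and 1 in lung (Zeb2), against 13.8%. DESeq2 and limma-voom called 0 of the 10 in either comparison. The median log2 fold change was -0.03 in bone (-0.03 over all genes) and 0.20 in lung (-0.03 over all genes). Bone and lung both lay on the same side of the 2 RM1536 libraries in 7 genes (Snai1, Twist2, Zeb2, Prrx1, Vim, Cdh2 and Cdh11), a pattern of 41.2% of all genes.

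**Figure D2:**
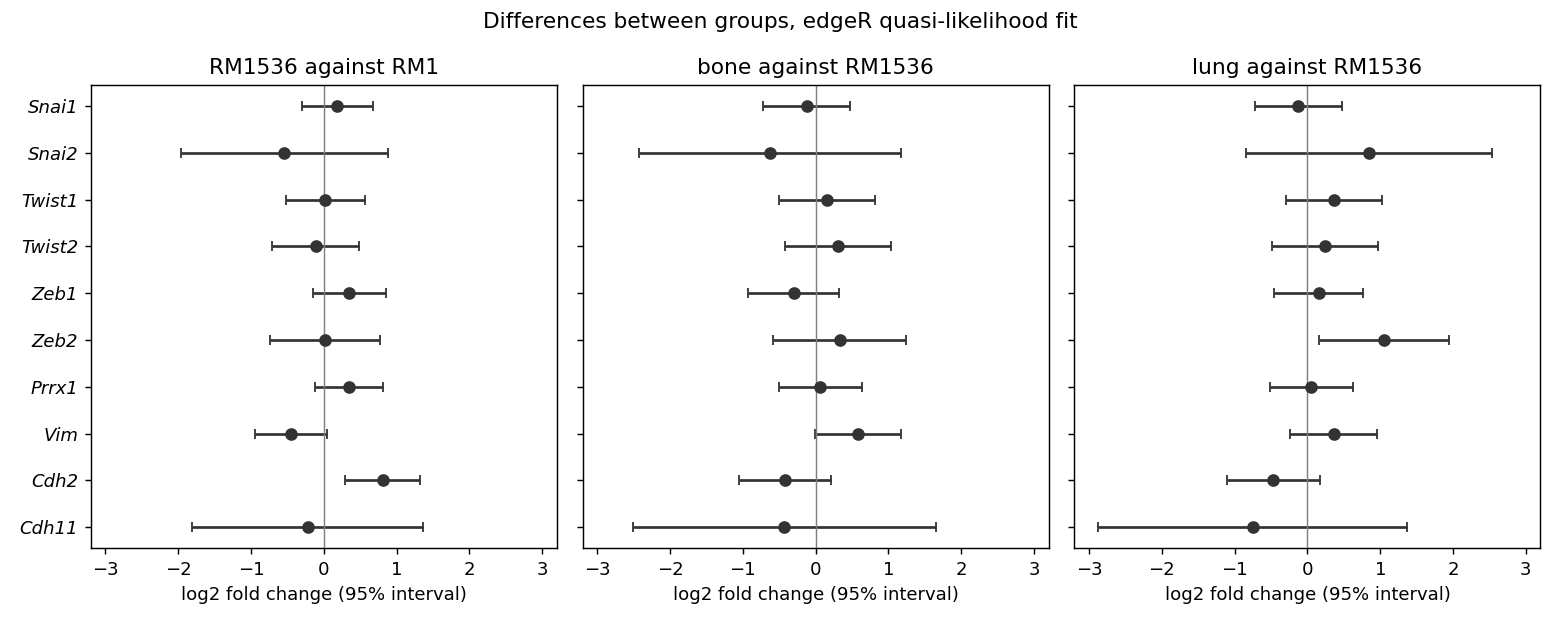
Log2 fold change (point) with its 95% interval (bar) from the edgeR quasi-likelihood fit for each of the 10 genes in the 3 comparisons, with a vertical line at 0. The intervals of Cdh2 in RM1536 against RM1 and of Zeb2 in lung against RM1536 leave out 0, though neither passed after adjustment, and those of Snai2 and Cdh11 are the widest.

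Of the Snail genes, Snai1 was the steadiest of the 10 and Snai2 the most variable. Snai1 (chromosome 2, 167538195 to 167542814, build GRCm38, GENCODE M21) had 31.42 and 31.43 CPM in the RM1 duplicates, 34.55 and 36.95 in those of RM1536, 32.84 in the bone library and 32.79 in that of the lung. Both RM1536 libraries lay above the other 4, but the highest library was only 1.18-fold above the lowest. The log2 fold change was 0.19 ± 0.20 (SE, n = 2 and 2) in RM1536 against RM1 (edgeR adjusted p = 0.632), with a 95% interval of -0.30 to 0.67.

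Snai2 (chromosome 16, 14705852 to 14709385) had 11.02 and 40.21 CPM in the RM1 duplicates, 20.67 and 14.46 in those of RM1536, 11.33 in the bone library and 31.53 in that of the lung. RM1 a and bone were the lowest and RM1 b and lung the highest, so the difference between the RM1 duplicates, 3.65-fold (95% counting interval 3.23 to 4.14), was larger than any difference between groups. The log2 fold change was -0.54 ± 0.58 in RM1536 against RM1 (edgeR adjusted p = 0.632), and without RM1 b it turned to 0.67. Bone stood at -0.63 ± 0.74 (0.872) and lung at 0.84 ± 0.69 (0.596) against RM1536. Per kb of exon, Snai2 made up 21.95% and 50.64% of the summed Snai1 and Snai2 level in the RM1 duplicates, 32.4% and 23.9% in those of RM1536, 21.7% in the bone library and 43.5% in that of the lung. Counting intervals here and below cover counting error only.

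The basic helix-loop-helix genes Twist1 and Twist2 stayed within narrow ranges. Twist1 (chromosome 12, 33957671 to 33959829) had 99.1 and 88.9 CPM in the RM1 duplicates, 82.5 and 108.1 in those of RM1536, 106.0 in the bone library and 122.6 in that of the lung. The RM1536 duplicates enclosed the RM1 libraries and bone, and lung lay above all others. Its log2 fold change was 0.02 ± 0.22 in RM1536 against RM1 (edgeR adjusted p = 0.972), 0.15 ± 0.27 in bone (0.916) and 0.36 ± 0.27 in lung (0.559). Twist2 (chromosome 1, 91801461 to 91848028) had 15.6 and 19.8 CPM in the RM1 duplicates, 15.2 and 17.6 in those of RM1536, 20.3 in the bone library and 19.3 in that of the lung, and all 3 of its 95% intervals included 0. Per kb of exon, Twist2 made up 7.45% to 10.3% of the Twist level in the 6 libraries. The antisense gene Gm29100 shares 1477 bases of exon with Twist2. It had 0.908 to 2.52 CPM, and the strand setting of the counting is not given in the sources used here, so reads in the shared bases cannot be told apart.

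In the genes of the ZEB repressors, Zeb1 and Zeb2, lung was the highest library, as it was in Twist1. Zeb1 (chromosome 18, 5591860 to 5775467) had 52.7 and 64.3 CPM in the RM1 duplicates, 72.4 and 76.8 in those of RM1536, 60.5 in the bone library and 83.2 in that of the lung. Both RM1536 libraries lay above both RM1 libraries, bone lay below them and lung above. The log2 fold change was 0.35 ± 0.21 in RM1536 against RM1 (edgeR adjusted p = 0.369), -0.30 ± 0.26 in bone (0.803) and 0.16 ± 0.25 in lung (0.794), so none passed. Zeb1 shares 198 bases of exon with the antisense gene Gm10125, which had at most 0.671 CPM.

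Zeb2 (chromosome 2, 44983632 to 45117395, minus strand) had 38.2 and 57.6 CPM in the RM1 duplicates, 58.9 and 38.3 in those of RM1536, 61.2 in the bone library and 100.6 in that of the lung. The duplicates of RM1 differed by 1.51-fold and those of RM1536 by 1.54-fold, RM1 and RM1536 covered the same range, bone was just above it and lung was well above. In lung against RM1536 the log2 fold change was 1.05 ± 0.37 (95% interval 0.15 to 1.95, unadjusted p = 0.0285, edgeR adjusted p = 0.333). Without the low-count filter, which brings many more genes into the fit, the adjusted p was 0.0172, and over the alternatives run it ran from 0.0172 to 0.691. Leaving out RM1536 a gave 1.42 and leaving out RM1536 b gave 0.79. As a share of Zeb1 and Zeb2 per kb of exon, Zeb2 ran from 20.4% in RM1536 b to 38.4% in lung. The antisense gene Zeb2os shares 653 bases of exon with Zeb2 and had at most 0.355 CPM.

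Markers of other cells were checked because stromal cells also express several of the 10 genes, Vim among them, and the number of such cells cannot be told apart from RNA per cell in bulk samples. Lyz2, a myeloid gene, had 0 reads in the 4 cultures, 2.68 CPM in bone and 2.88 in lung, while Ptprc and Cd52, which mark leukocytes in general, had at most 3 reads in each library. Relative to total counts, the 7 leukocyte markers summed to 11.2 and 46.6 CPM in the RM1 duplicates, 12.1 and 3.83 in those of RM1536, 25.2 in the bone library and 22.5 in that of the lung. The 7 fibroblast markers summed to 664 to 1410 CPM, with 1067 in lung. Within that list Col1a1 had 603.8 CPM in lung against 0.790 to 27.8 in the other 5 libraries, and Pdgfra 28.3 in lung against 3.27 to 14.0. Fbln1 was also highest in lung (63.3). The rest of the list differed: Col3a1 (412.7 CPM in lung) and Lum (0.118) were lowest in lung. Dcn had 24.3 in lung and was highest in RM1536 a (57.8), and Thy1 had 0 reads in lung. Sums were low for the 6 endothelial markers (1.82 to 9.18, with Emcn at 0 in all) and the 4 lung epithelial markers in the table (0.494 to 1.56, with Sftpc, Sftpb and Scgb1a1 at no more than 3 reads in each). The part of these cells in the Zeb2 level of lung was not tested. Of the prostate epithelial markers, Krt5, Hoxb13 and Psca were at 0 in all libraries, whereas Krt8 (966 to 2366 CPM) and Krt18 (275 to 458) were expressed. The 5 osteoblast markers summed to 24.2 and 6.39 in RM1 and 0.494 to 1.14 elsewhere. In RM1536 against RM1, edgeR called 1 of 4 tested leukocyte markers (Laptm5) and 1 of 3 tested osteoblast markers (Dmp1), both lower. It also called 1 of 6 tested fibroblast markers (Fbln1), higher, beside 5.64% of all genes. Each of these missed the threshold in 2 or more of the 4 fits that left out a culture library. Laptm5 had only 6 and 4 reads in RM1536, and Dmp1 had 8 and 13. Against RM1536, DESeq2 called Lyz2 and Laptm5 higher in bone and Lyz2 higher in lung. It also called Col1a1, lower in bone and higher in lung. Neither edgeR nor limma-voom called a marker there. Lyz2, with 0 reads in the cultures, passed the filter only through bone and lung.

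Prrx1, a homeobox gene of mesenchyme and its tumours, was somewhat higher in every RM1536-derived library than in RM1. Prrx1 (chromosome 1, 163245119 to 163313710, minus strand) had 238.8 and 221.8 CPM in the RM1 duplicates, 298.4 and 285.2 in those of RM1536, 305.5 in the bone library and 303.0 in that of the lung. The 4 RM1536-derived libraries lay within a narrow band above both RM1 libraries. The log2 fold change was 0.34 ± 0.19 in RM1536 against RM1 (95% interval -0.13 to 0.81, edgeR adjusted p = 0.349), 0.07 ± 0.23 in bone and 0.05 ± 0.23 in lung.

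**Figure D3:**
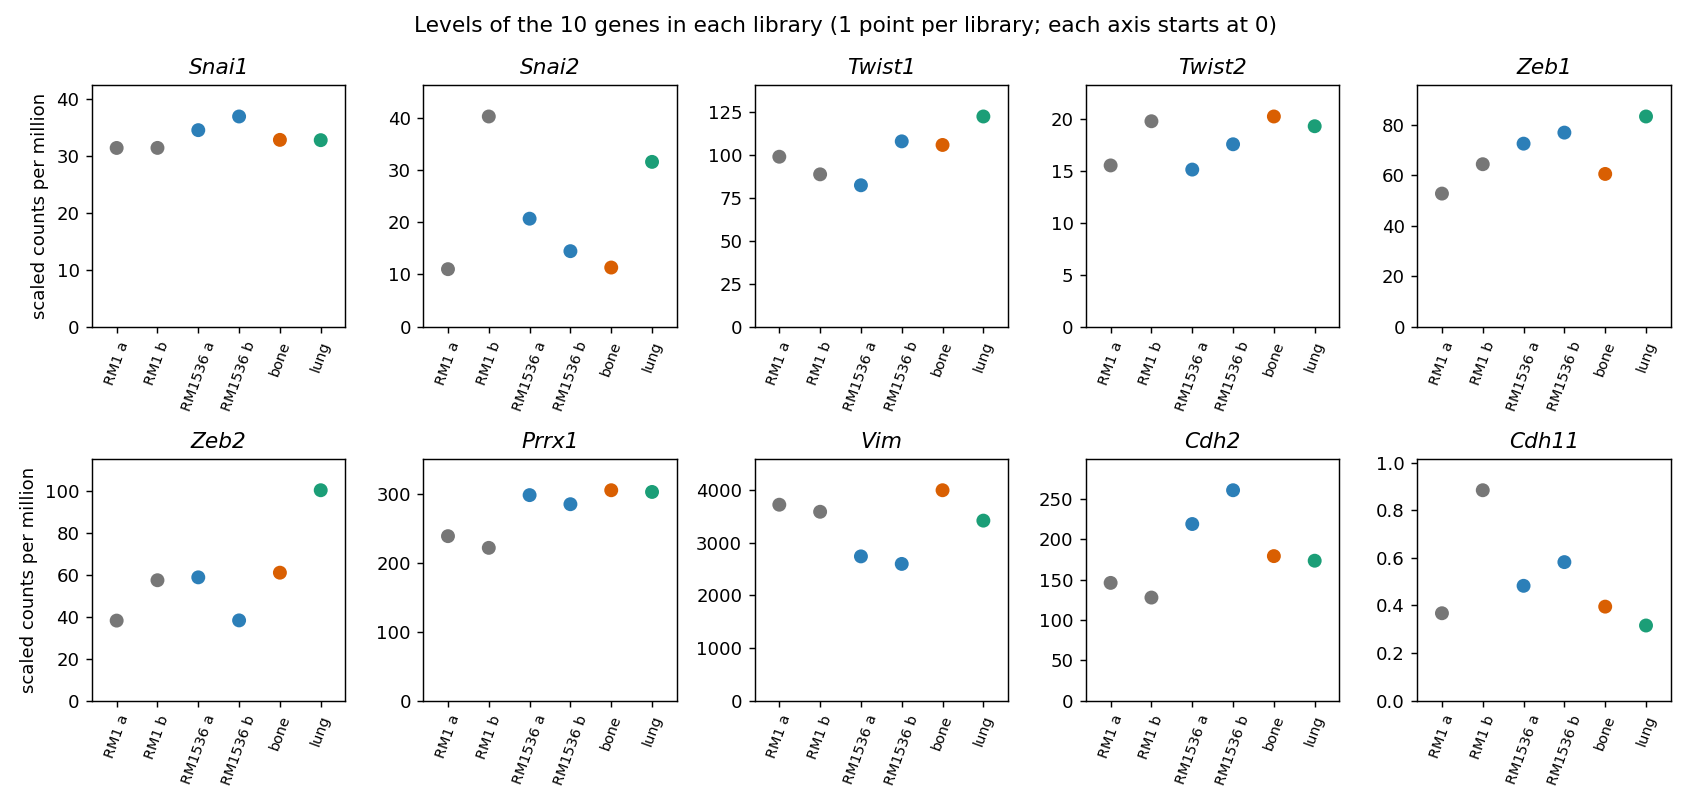
Scaled CPM of each of the 10 genes (each axis linear from 0) in the 6 libraries, 1 point per library coloured by group. Snai1 and Prrx1 vary little, Snai2 differs most between RM1 a (11.02) and RM1 b (40.21), Vim is lowest and Cdh2 highest in the 2 RM1536 culture libraries.

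Vim, the filament gene, was abundant in every library and lowest in RM1536 from culture. It (chromosome 2, 13573927 to 13582826) had 3718 and 3584 CPM in the RM1 duplicates, 2737 and 2594 in those of RM1536, 3993 in the bone library and 3416 in that of the lung. The RM1536 cultures lay below the other 4 libraries, and their duplicates differed by only 1.06-fold. Its log2 fold change was -0.45 ± 0.20 in RM1536 against RM1 (95% interval -0.95 to 0.04, edgeR adjusted p = 0.253), 0.58 ± 0.24 in bone (-0.01 to 1.18, 0.514) and 0.36 ± 0.24 in lung (-0.24 to 0.96, 0.529). The latter pair share the RM1536 libraries with the first, so the 3 values are not independent.

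Cdh2, which codes for N-cadherin, was highest in RM1536 from culture, where Vim was lowest. Cdh2 (chromosome 18, 16588877 to 16809246, minus strand) had 145.9 and 127.7 CPM in the RM1 duplicates, 218.9 and 260.8 in those of RM1536, 179.1 in the bone library and 173.4 in that of the lung. Bone and lung lay between the RM1 and the RM1536 libraries. In RM1536 against RM1 the log2 fold change was 0.81 ± 0.21, a fold of 1.75 (95% interval 1.23 to 2.50; unadjusted p = 0.00827, edgeR adjusted p = 0.0866). DESeq2 gave an adjusted p of 0.0193 and the fit without a low-count filter 0.0259, both under the threshold, and over the alternatives run it ran from 0.0193 to 0.368. Against RM1536, bone stood at -0.42 ± 0.26 (0.704) and lung at -0.47 ± 0.26 (0.456).

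Cdh11, the osteoblast cadherin gene of mesenchyme and bone, was at the edge of detection. Cdh11 (chromosome 8, 102632095 to 102785642, minus strand) had 11 and 25 reads in the RM1 duplicates, 12 and 18 in those of RM1536, 9 in the bone library and 8 in that of the lung, or 0.316 to 0.885 CPM. With exact counting intervals of 0.181 to 0.750 CPM in bone and 0.136 to 0.622 in lung, a difference between these libraries was not detectable at this depth. All 3 log2 fold changes had wide 95% intervals, such as -2.51 to 1.65 in bone against RM1536.

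The epithelial cadherin gene Cdh1 was also near the limit of detection, so Cdh2 made up nearly all of the reads of the pair in every library. Cdh1 had 5 and 8 reads in the RM1 duplicates, 7 and 2 in those of RM1536, 4 in the bone library and 11 in that of the lung. As a share of Cdh1 and Cdh2 reads that was 0.114% and 0.221% in the RM1 duplicates, 0.128% and 0.0248% in those of RM1536, 0.0980% in the bone library and 0.250% in that of the lung, with exact (Clopper-Pearson) 95% intervals of 0.0267% to 0.251% in bone and 0.125% to 0.446% in lung. These intervals overlap. The interval of RM1536 b, 0.00301% to 0.0896%, lay below those of lung and of RM1 b (0.0956% to 0.435%), on 2 Cdh1 reads. In all, there were 37 Cdh1 reads and 29952 Cdh2 reads. The cadherin-binding catenins did not pass in any comparison (edgeR, 0 of 4, with Jup alone at an unadjusted p under 0.05, in bone and in lung). Ctnna1 had 559 to 813 CPM, Ctnnb1 (beta-catenin) 485 to 949 and Ctnnd1 (p120) 30.0 to 48.1. Jup, which codes for plakoglobin of desmosomes and adherens junctions, had 199 and 210 CPM in the RM1 duplicates, 175 and 230 in those of RM1536, 116 in the bone library and 85.3 in that of the lung. Bone and lung lay below all 4 cultures, and the log2 fold change in lung was -1.25 ± 0.29 (edgeR adjusted p = 0.295; 0.0151 with DESeq2 and 0.00833 without a low-count filter). Among 11 tested genes of other cadherins and catenins, Cdh10 alone passed in RM1536 against RM1, beside 5.64% of all genes. It was also the only 1 at an unadjusted p under 0.05, beside 23.0% of all genes. Cdh10 had 0.100 and 0.106 CPM in the RM1 duplicates, 1.97 and 2.04 in those of RM1536, 0.176 in the bone library and 1.74 in that of the lung. Its log2 fold change was 4.22 ± 0.55 (edgeR adjusted p = 0.0175). With 3 reads in each RM1 library, Cdh10 passed the low-count filter only through libraries where it was high. Leaving out RM1 a (0.0590) or RM1536 b (0.0648) ended its call. In bone and lung 0 of the 11 passed. At an unadjusted p under 0.05 there were 3 and 2, beside 9.92% and 13.8% of all genes. DESeq2 called Jup in lung only, and limma-voom 0 in both.

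Bone and lung, from the same mouse, were close to each other in most of the 10 genes, and this comparison has no replicate and no test. Only Snai2 differed by 2-fold or more, as did 19.2% of all genes: it was 2.78-fold higher in lung (95% counting interval 2.42 to 3.22). Zeb2 was 1.65-fold higher in lung (1.54 to 1.76), Zeb1 1.38-fold (1.29 to 1.47) and Twist1 1.16-fold (1.10 to 1.22). Vim was lower in lung, at 0.856 of the bone level (0.848 to 0.864). For Snai1 (0.999), Prrx1 (0.992), Cdh2 (0.969), Twist2 (0.953) and Cdh11 (0.799) the counting intervals of the ratio included 1. Snai2 and Zeb1 had bone below and lung above both RM1536 libraries, a split on opposite sides that 15.4% of all genes showed in either direction.

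These differences can be set beside those between the RM1 and the RM1536 duplicates, whose spread may be technical. In RM1 a against RM1 b, 2 of the 10 genes (Snai2 and Cdh11) differed by 2-fold or more, as did 12.9% of all genes. Between RM1536 a and RM1536 b, 0 of the 10 did, against 13.8% of all genes. For Snai2 and Cdh11 the RM1 duplicates differed more than bone and lung did. For Zeb2, Zeb1 and Vim bone and lung differed more than either pair of duplicates, by little. Zeb2 had 1.65-fold against at most 1.54, Zeb1 1.38 against 1.22 and Vim 1.17 against 1.06. How many of all genes show this pattern was not counted. Over all 6 libraries the highest value was within 1.5-fold of the lowest in 4 genes (Snai1, Twist1, Twist2 and Prrx1), as it was in 18.9% of all genes. The median ratio of highest to lowest was 1.56 for the 10 genes, against 2.04 for all genes tested and 1.76 for the 8894 with a mean of at least 10 CPM.

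**Figure D4:**
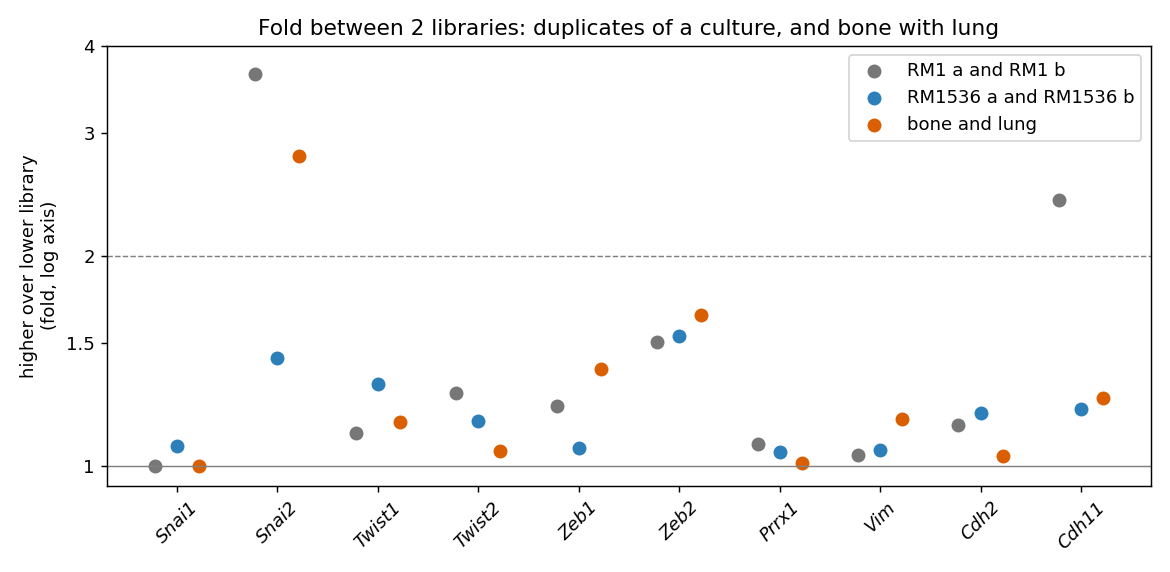
Higher over lower library (fold, log axis) for the duplicates of RM1, the duplicates of RM1536, and bone with lung, for each of the 10 genes, with lines at 1 and 2. Snai2 exceeds 2 between the RM1 duplicates (3.65) and between bone and lung (2.78), and Cdh11 between the RM1 duplicates (2.41); all other points lie below 2.

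The rest of the programme was described with companion lists of known genes. Among 8 tested genes of other transition factors (Foxc1, Foxc2, Sox4, Sox9 and others) 0 passed edgeR in any comparison. At an unadjusted p under 0.05 there were 2, 1 and 1 in RM1536 against RM1, bone and lung. The shares of all genes at that p were 23.0%, 9.92% and 13.8%. DESeq2 called 1, in RM1536 against RM1, and limma-voom 0. Among 18 partners and regulators of the factors, edgeR called 0. They include the E-protein genes Tcf3, Tcf4 and Tcf12 that pair with Twist and the corepressor genes Ctbp1 and Kdm1a. At an unadjusted p under 0.05 there were 3, 2 and 2, beside those same shares of all genes. DESeq2 called Tcf4 in RM1536 against RM1 and Ezh2 in lung, and limma-voom 0. Of 16 upstream signals, 1 passed edgeR in RM1536 against RM1, beside 5.64% of all genes. At an unadjusted p under 0.05 there were 5, beside 23.0% of all genes. The gene that passed was Tgfb1, the ligand gene best known for inducing the programme. It fell in RM1536 (125.4 and 160.4 CPM in RM1, 62.4 and 46.1 in RM1536), with a log2 fold change of -1.40 ± 0.25 (edgeR adjusted p = 0.0364). It missed the threshold without RM1 b (0.0883), RM1536 a (0.0615) or RM1536 b (0.134). DESeq2 and limma-voom called Smad3, a signal transducer of the TGF-beta receptors, as well as Tgfb1, while edgeR gave Smad3 -1.08 ± 0.23 (adjusted p = 0.0522). Tgfb1 had 68.4 CPM in bone and 109.6 in lung, and 0 of the 16 passed edgeR there, with 4 and 3 at an unadjusted p under 0.05, beside 9.92% and 13.8% of all genes. DESeq2 called Jag1 in bone and 0 in lung, and limma-voom 0 in both.

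Epithelial targets of repression were mostly too low to test: 6 of the 13 in the table passed the filter, and of these 2 fell in RM1536 against RM1 and 0 rose, beside 5.64% of all genes that passed in either direction. DESeq2 called Ocln and Pkp3, a desmosome plaque gene that edgeR did not call (log2 fold change -1.24 ± 0.28, adjusted p = 0.0625), and limma-voom called Ocln and Dsp. The tight junction gene Ocln had 8.38 and 5.70 CPM in the RM1 duplicates, 1.57 and 0.874 in those of RM1536, 6.37 in the bone library and 0.158 in that of the lung (log2 fold change -2.53 ± 0.45 in RM1536 against RM1, edgeR adjusted p = 0.0359; 0.0880, 0.0607 and 0.127 without RM1 a, RM1536 a and RM1536 b). Bone lay within the range of RM1 and lung below all others. The desmosome gene Dsp had 95 and 249 reads in RM1, 0 and 3 in RM1536, and 0 in bone and in lung (edgeR adjusted p = 0.0241; 0.203 with DESeq2). It also missed the threshold without RM1536 a (0.067) or RM1536 b (0.0663). In bone and lung 0 of the 6 passed edgeR. At an unadjusted p under 0.05 there were 3 and 2, beside 9.92% and 13.8% of all genes. DESeq2 called Ocln in bone and 0 in lung, and limma-voom 0 in both. Since a gene low in RM1536 passed the filter through RM1, these counts of falls say nothing of the 7 targets that were not tested.

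Other mesenchymal genes moved in both directions in RM1536 against RM1, with 1 of 17 higher and 3 lower, beside 5.64% of all genes that passed. The matrix protease gene Mmp2 rose (68.0 and 93.4 CPM in RM1, 325.6 and 288.2 in RM1536; log2 fold change 1.93 ± 0.24, edgeR adjusted p = 0.0162). The filament gene Nes fell (-1.78 ± 0.24, 0.0185), as did the fibroblast protease gene Fap (-3.82 ± 0.55, 0.0214). Fap had 66 and 69 reads in RM1 and only 3 and 6 in RM1536. Without RM1536 b, Mmp2 (0.0535), Nes (0.0595) and Fap (0.0832) missed the threshold. Nes (0.0624) and Fap (0.0749) also missed it without RM1536 a, and Nes without RM1 a (0.0518). In bone and lung 0 of the 17 passed edgeR. At an unadjusted p under 0.05 there were 6 and 4, beside 9.92% and 13.8% of all genes. There DESeq2 called 3 in bone, Fn1 and Tnc among them, and 0 in lung, and limma-voom called 0 in both.

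For each of the 9 genes with a mean of at least 1 CPM, the genes with the most similar profile were found by Pearson correlation of log2(CPM + 0.5) over the 6 libraries, among 13831 others. With 6 points that share the libraries and their depth, high values are common: between 33 (Twist2) and 489 (Prrx1) genes reached 0.9. The closest were Adam33 (r = 1.000, at most 0.712 CPM) and Cep76 (0.995) for Snai1, Napb (0.989) and Hhipl1 (0.983) for Snai2, Sipa1l3 (0.976) and Kmt2d (0.958) for Twist1, and Blcap (0.979) and Polr3c (0.977) for Twist2. For the other 5 they were B3galnt2 (0.991) and Fbn1 (0.990) for Zeb1, Slc39a9 (0.998) and Ttc12 (0.996) for Zeb2, Neurl2 (0.997) and Krt10 (0.995) for Prrx1, P2ry2 (0.995) and Eps8l2 (0.993) for Vim, and Brd8 (0.995) and Elp2 (0.993) for Cdh2. Among the 10 genes themselves, Cdh2 and Snai1 were most alike (0.969) and Vim and Snai1 most opposed (-0.865), both over the same 6 libraries. These correlations are a description of profile shape, and a gene that varies little, such as Snai1, can match others of any fold.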

How the data were processed

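RNA was measured in 6 libraries of cultured or recultured cells. Raw counts per gene were deposited by the authors. The submitters' processing notes name GRCm38, TopHat2 2.1.10, HTSeq and edgeR, without their roles. For annotation, counting mode and strand setting, nothing is stated (not given in the sources used here). Reads of an unnamed entry, 0.00626% to 0.0083% of the total, were left out.

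The fit used edgeR 4.0.16 under R 4.3.3 (filterByExpr, TMM scaling, quasi-likelihood test, all 6 libraries in 4 groups, 13832 genes, Benjamini-Hochberg adjustment, call at 0.05). The spread came from the RM1 and RM1536 duplicates (2 residual degrees of freedom, common dispersion 0.0725), which differed beyond counting noise (chi-square per degree of freedom 89.9 and 91.1). The scripts were tested on simulated data. Alternatives were RLE scaling, DESeq2 1.42.0, limma-voom 3.58.1, other filters, each culture library left out, and blocks. Gene lengths and positions are from GENCODE M21.

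All 10 genes, companion genes called, Cdh1, 4 catenins and, per gene, the 2 most similar profiles are named. Some genes of the lists are counted but not reported by name here. The genes and lists were chosen with earlier results of these data known.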

Additional observations from a re-analysis of the deposited data

Results flagged for a closer look

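In 2 of the 10 genes, bone lay below and lung above both RM1536 culture libraries, so the 2 recovered libraries lay on opposite sides of them. For Snai2 the log2 ratio of lung to bone was 1.477, with 11.33 CPM in bone, 14.46 and 20.67 in RM1536 and 31.53 in lung. The RM1 duplicates of Snai2 differed by more than that (11.02 and 40.21 CPM). For Zeb1 the log2 ratio was 0.4605, with 60.5 CPM in bone, 72.4 and 76.8 in RM1536 and 83.2 in lung. The bone value of Zeb1 lay between the RM1 libraries (52.7 and 64.3 CPM). With 1 library each, these differences between bone and lung were not tested. Over all genes tested, 15.4% had bone and lung on opposite sides of the RM1536 libraries.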

How the results depend on the processing

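Over the alternatives run other than the crossed fit below, the 30 fold changes of the 10 genes kept direction and call in 274 refits, while in 3 a call was gained and in 10 the sign changed. In RM1536 against RM1 the count of called genes went from 0 to 1 with DESeq2, without a low-count filter and in the crossed fit (Cdh2 each time), and in lung against RM1536 from 0 to 1 without a low-count filter (Zeb2). The cause was not tested. Twist1 in RM1536 against RM1 was -0.00257 without a filter and -0.00378 with the replicate block, and Ctnnd1 in bone was -0.0153 without a filter. Leaving out each culture library in turn gave, in RM1536 against RM1, -1.23 to 0.67 for Snai2, -0.21 to 0.17 for Twist1, -0.307 to 0.0735 for Twist2, -0.35 to 0.35 for Zeb2, -0.76 to 0.53 for Cdh11, -1.75 to 0.30 for Cdh1 and -0.25 to 0.14 for Jup. In bone it gave -0.0208 to 0.362 for Twist1, -0.67 to 1.39 for Cdh1 and -0.0354 to 0.0656 for Ctnnd1, and in lung -0.0909 to 0.00944 for Ctnnd1. Every leave-out kept 0 of the 10 genes called in each comparison.

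Over all genes, calls were 780 (RM1536 against RM1), 2 (bone) and 0 (lung) with edgeR. They were 1471, 379 and 351 with DESeq2, and 2394, 859 and 1299 without a filter. Leave-outs gave 196 to 513, 0 to 128 and 0 to 7. In bone limma-voom called 0.

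Replicate letters were checked for pairing. The deviations of same-lettered libraries correlated at -0.367, so same-lettered libraries did not deviate together. What the letters mark is not given in the sources used here. In the 4 cultures the replicate block called 0 of the 10 genes and 295 of all genes, against 836 without the block. With the letters crossed, an alternative chosen after seeing the data, 3165 genes were called, 1 of the 10 among them.

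With 1 bone and 1 lung library, both from 1 mouse, a difference between sites cannot be told apart from the spread between libraries. Depth limits Cdh11 and Cdh1, where a few reads set the values.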
